A study of Rattus norvegicus with 48 samples.

Results

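Oligodendrocytes wrap axons of the central nervous system in myelin, and 9 genes that mark their lineage are described here in cultured rat cortex. The genes were taken from the deposited expression table by symbol, 9 of 30211, and all 9 were above the minimum for testing that 15890 genes met. Mbp, Mog, Mag, Mobp and Cnp encode proteins of the myelin sheath, Sox10, Olig1 and Olig2 encode transcription factors of the lineage, and Pdgfra encodes the PDGF receptor by which precursors are recognized. The spread between libraries of one group is in view throughout, since it turned out to be wide for part of these genes and narrow for the rest.

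RNA-seq was performed on 48 libraries, 16 groups of 3, from mixed cortical cultures of Sprague-Dawley rat fetuses at embryonic day 18, kept for 21 days in vitro. Control cultures received no agent, and Cocaine cultures received 25 µM cocaine for 24 h. Tat cultures received 6 ng/mL of the HIV-1 protein Tat (the 1-86 form) for 48 h. Tat-Cocaine cultures received both at these doses, Tat for 48 h first and then cocaine for a further 24 h. Each of 4 compounds, 4OI (4-octyl itaconate, a cell-permeable itaconate ester, 250 µM), the anti-inflammatory kinase inhibitor Amlexanox (25 µM), Tazemetostat (3 µM) and the potassium channel blocker Senicapoc (1 µM), was given by itself, together with Tat, and on top of Tat plus cocaine. The sources name no transgene and no sorting or enrichment of oligodendrocyte lineage cells, so each library is the RNA of a whole mixed culture.

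Oligodendrocytes arise in stages. Dividing precursors carry Pdgfra on their surface and express Olig1, Olig2 and Sox10, and when they leave the cell cycle they lose Pdgfra, keep the transcription factors and switch on myelin genes such as Mbp and Mog. Sox10 binds regulatory DNA of myelin genes through its HMG box, and Myrf, a membrane-bound transcription factor, is needed for their full expression.

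To show the DNA in front of these genes, the 250 bases before the annotated start were read from a set of RefSeq windows (build GRCr8). The set used here held windows for 6 of the 9 genes and none for Mog, Sox10 and Olig1. Both strands were searched for ACAAAG (complement CTTTGT) and ACAATG, cores of SOX sites, and for CTGGCAC and CTGGTAC, forms of the Myrf site, none of which overlap each other. Mag and Mobp are shown because they had the widest spread between libraries, and Olig2 because it varied little yet passed a test between groups. Capitals mark a match on either strand, and each sequence is given 5′ to 3′ on the strand of the gene.
Mag, chr1:95291045-95291294, minus strand: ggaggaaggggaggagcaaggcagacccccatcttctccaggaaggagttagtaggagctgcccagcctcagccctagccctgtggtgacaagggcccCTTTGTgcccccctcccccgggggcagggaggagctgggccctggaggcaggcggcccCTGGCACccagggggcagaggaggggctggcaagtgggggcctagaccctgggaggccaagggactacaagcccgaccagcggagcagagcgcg
Mobp, chr8:128746982-128747231, plus strand: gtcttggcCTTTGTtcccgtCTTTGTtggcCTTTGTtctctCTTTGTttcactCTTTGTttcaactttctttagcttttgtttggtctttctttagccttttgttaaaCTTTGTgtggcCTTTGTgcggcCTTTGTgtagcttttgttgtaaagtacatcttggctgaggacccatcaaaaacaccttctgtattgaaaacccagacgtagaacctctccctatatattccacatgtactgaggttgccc
Olig2, chr11:43961335-43961584, plus strand: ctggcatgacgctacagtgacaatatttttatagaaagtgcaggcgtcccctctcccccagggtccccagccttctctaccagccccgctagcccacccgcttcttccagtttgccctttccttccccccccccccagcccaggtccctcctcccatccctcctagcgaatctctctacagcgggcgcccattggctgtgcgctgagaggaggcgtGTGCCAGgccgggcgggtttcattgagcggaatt
The Mag window held 1 SOX core 152 bases and 1 Myrf form 94 bases before the start. The Mobp window held 8 SOX cores, all on the strand opposite to the gene. Only 2 of the 33469 windows in the reference, Mobp among them, held 8 or more. These cores recur in a repetitive stretch, from 242 to 197 and from 142 to 120 bases before the start, so they are not 8 independent matches. The Olig2 window held 1 Myrf form, 34 bases before the start. ACAAAG was present in 16.3% of all windows and in 4 of the 7 windows of the genes described here, CTGGCAC in 3.78% and in 3 of 7, ACAATG in 11.1% and in 1 of 7, and CTGGTAC in 1.78% and in 0 of 7. A match is a stretch of letters and does not show that a factor binds there.

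The samples were labelled as neurons, but the cultures were mixed. Each library held between 17.5 and 29.1 M reads on genes (median 22.4 M). The summed level of 8 neuronal markers was 861 to 3855 CPM, that of 6 astrocyte markers 5137 to 12141 CPM and that of 6 microglial markers 167 to 1932 CPM, and none of these 20 genes was at 0 in any library. Schwann cell markers were low, with a summed level of 4.93 to 25.0 CPM and Ncmap at 0 in 37 libraries. One library stood apart, Cocaine replicate 3, in which 114 of 15890 genes (0.717%) were over 4-fold above both other Cocaine libraries on the log2(CPM + 0.5) scale, among them 6 of the 9 lineage genes.

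Mbp encodes myelin basic protein, which compacts the sheath. Levels are CPM as deposited, a share of the library's reads that does not correct for gene length, so they are compared between libraries and not between genes. In Control cultures Mbp stood at 393, 162 and 27.4 CPM in replicates 1 to 3. In Cocaine cultures it stood at 356, 259 and 9293 CPM. In Tat cultures it stood at 67.7, 185 and 556 CPM, and in Tat-Cocaine cultures at 324, 151 and 103 CPM. Untreated cultures thus differed among themselves by over 10-fold, and apart from Cocaine replicate 3 the libraries of the other 3 groups lay between 67.7 and 556 CPM, inside the range of the Tat-4OI cultures (48.0 to 564 CPM).

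With 4OI alone Mbp was 129, 613 and 130 CPM, with Tat-4OI 564, 48.0 and 257 CPM, and with Tat-Cocaine-4OI 349, 27.1 and 277 CPM. With Amlexanox alone it was 447, 163 and 24.6 CPM, with Tat-Amlexanox 66.4, 70.1 and 474 CPM, and with Tat-Cocaine-Amlexanox 105, 47.9 and 206 CPM. In each of these 6 groups at least 1 library lay over 4-fold from another, and all 6 groups overlapped. With Tazemetostat alone Mbp was 245, 218 and 52.7 CPM, and with Tat-Tazemetostat 165, 16.5 and 223 CPM. With Tat-Cocaine-Tazemetostat it was 30.8, 8.92 and 47.5 CPM. Senicapoc alone gave 383, 98.2 and 291 CPM, Tat-Senicapoc 315, 183 and 116 CPM, and Tat-Cocaine-Senicapoc 438, 64.9 and 221 CPM. The lowest of all 48 values, 8.92 CPM, and the highest, 9293 CPM, were 1042-fold apart, or 68.8-fold without Cocaine replicate 3.

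**Figure D1:**
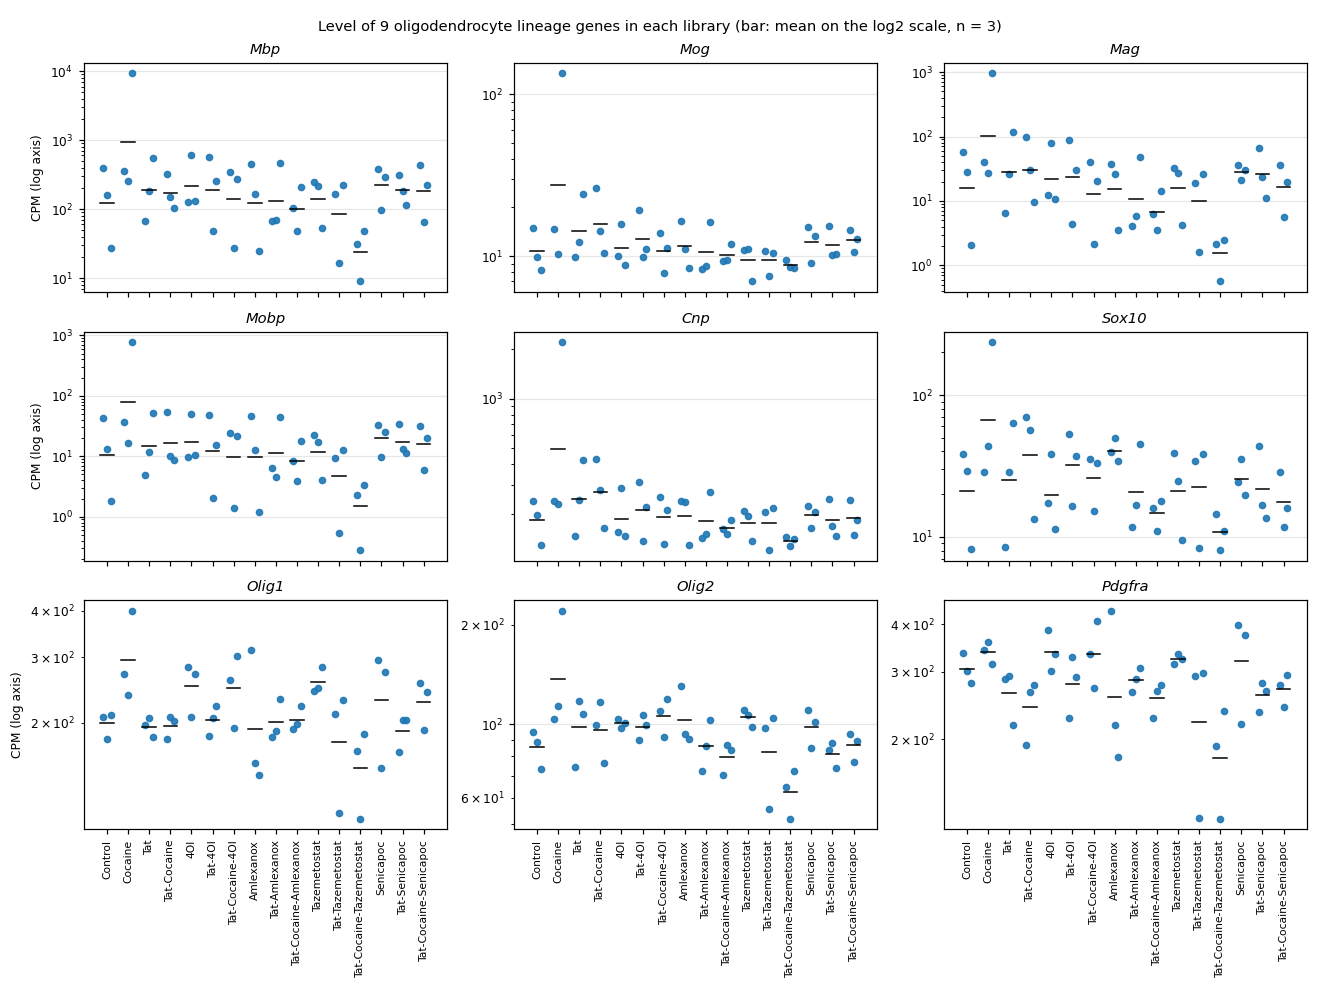
CPM of each of the 9 genes (log axis) in the 3 libraries of each of 16 groups, shown as points, with a bar at the mean on the log2(CPM + 0.5) scale. Mbp spreads over more than 5-fold within 10 of 16 groups and Mag and Mobp within 13, Olig1, Olig2 and Pdgfra stay within a narrow band, and Cocaine replicate 3 sits far above the other 47 libraries for Mbp, Mog, Mag, Mobp, Cnp and Sox10.

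Within a group the highest Mbp library exceeded the lowest by a median of 6.95-fold over the 16 groups, from 2.72-fold to 35.9-fold. Mag, a cell adhesion protein of the inner myelin surface, varied by a median of 10.6-fold and Mobp, a small basic myelin protein, by 10.3-fold. Mag ran from 0.561 to 953 CPM and Mobp from 0.280 to 774 CPM, with medians of 22.1 and 12.8 CPM. Both were lowest in Tat-Cocaine-Tazemetostat replicate 2, where the Mag value stood for 11 reads and the Mobp value for about 5.5 reads, and highest in Cocaine replicate 3. Libraries treated alike were over 5-fold apart in 13 of 16 groups for Mag and for Mobp, and in 10 of 16 for Mbp.

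Cnp, an enzyme anchored in the cytoplasmic channels of myelin, and Mog, on its outer surface, varied far less. The median fold between the highest and the lowest library of a group was 1.84 for Cnp and 1.77 for Mog. Cnp never fell below 121 CPM and was 197 CPM in the median library, while Mog never fell below 6.98 CPM and was 10.7 CPM in the median library. Each was over 5-fold apart in 1 group alone, that of Cocaine, where Cnp was 240, 231 and 2203 CPM and Mog 14.7, 10.3 and 134 CPM.

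Sox10, which marks the lineage from precursor to myelinating cell, lay between these, with a median fold of 3.33 within groups and a range of 8.05 to 236 CPM. Olig1 and Olig2, basic helix-loop-helix factors that specify the lineage, each varied by a median of 1.30-fold within groups. Olig1 ran from 111 to 400 CPM (median 207) and Olig2 from 51.8 to 221 CPM (median 94.4). Pdgfra ran from 124 to 434 CPM (median 287), with a median fold of 1.31 within groups. For these last 3 genes 0 of 16 groups were over 5-fold apart.

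On the log2(CPM + 0.5) scale, with 32 degrees of freedom, the SD within groups was 1.76 for Mag, 1.74 for Mobp and 1.63 for Mbp, against a median of 0.21 and a 99th percentile of 0.76 over the 15890 genes tested. By this SD Mag ranked 1, Mobp 2 and Mbp 5 of 15890. Sox10 (0.96) ranked 59, Cnp (0.65) 322 and Mog (0.64) 357, so that 4 of the 9 genes were among the upper 1% and 6 among the upper 5%. Pdgfra (0.34, rank 3385), Olig1 (0.32, rank 3928) and Olig2 (0.28, rank 5178) were nearer to the middle. Without Cocaine replicate 3 Mag, Mobp and Mbp ranked 2, 3 and 10 and Sox10 69, while Cnp moved to 0.46 (rank 1337) and Mog to 0.42 (rank 1882).

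**Figure D2:**
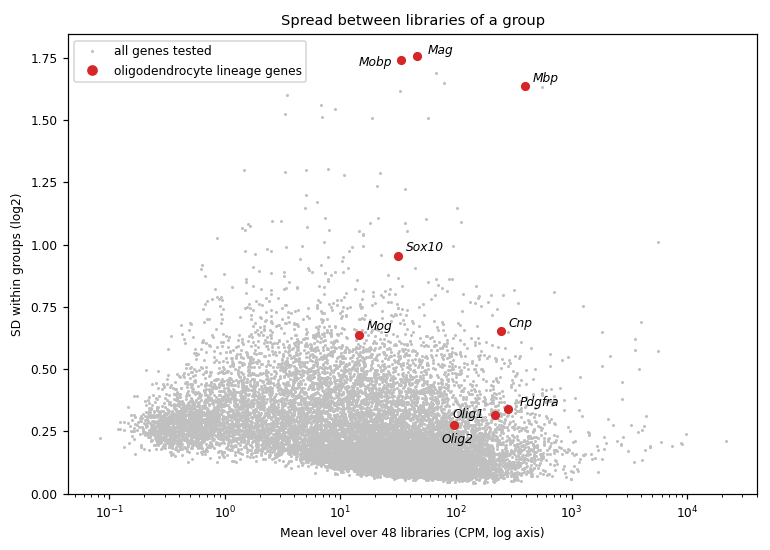
SD within groups on the log2 scale (32 degrees of freedom) against mean CPM over 48 libraries (log axis), with 1 grey point per gene tested (15890) and the 9 lineage genes in red. Mag, Mobp and Mbp lie at the upper edge of all genes, Sox10 below them, and Olig1, Olig2 and Pdgfra inside the cloud.

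Groups accounted for little of this variation. Of the 47 degrees of freedom between 48 libraries 15 lie between groups, which is 31.9%, and the share of the variance between groups was 32.8 to 39.2% for Mbp, Mog, Mag, Mobp, Cnp and Sox10, against a median of 60.7% over all genes tested. It was 43.6% for Olig1, 43.2% for Pdgfra and 53.0% for Olig2. Placed in order of their mean log2 level, Tat-Cocaine-Tazemetostat stood last for all 9 genes, and Cocaine stood first for all but Pdgfra, for which 4OI did. For Mbp 13 of the 15 gaps between neighbours in that order were below 1 SE of a difference between groups (1.33), and the widest, 2.09, separated Cocaine from Senicapoc. Neighbouring groups could therefore hardly be ranked, with 13 to 15 of 15 gaps below 1 SE for each of the 9 genes.

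The order of the libraries within a group was much the same for the myelin genes. The library with the most Mbp also had the most Mag and the most Mobp in 16 of 16 groups, the most Cnp in 15, the most Mog and Sox10 in 13, but the most Olig1 in 8, Olig2 in 9 and Pdgfra in 7. To measure this, each value was taken as its deviation from its group's mean log2 level, over 48 libraries, and its p was obtained by permuting libraries within groups (100000 permutations, two-sided, smallest p 1e-05, 11 pairs of genes). In bulk samples fewer cells of a type and less RNA per cell cannot be told apart, and genes of one library also share its depth and scaling.

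Mbp correlated with Mobp (r = 0.99, rho = 0.99), Mag (r = 0.97, rho = 0.96), Cnp (r = 0.88, rho = 0.92), Sox10 (r = 0.83, rho = 0.82) and Mog (r = 0.82, rho = 0.89), with the smallest permutation p, 1e-05, for each (adjusted p = 1.83e-05 for r and 2.2e-05 for rho). With Olig2 it correlated less (r = 0.74, rho = 0.69, permutation p = 6e-05 and 1e-04, adjusted p = 9.43e-05 and 0.000138), and with Olig1 less again (r = 0.57, rho = 0.49, permutation p = 0.00163 and 0.00523, adjusted p = 0.00199 and 0.00575). For Pdgfra r was 0.37 (permutation p = 0.0453, adjusted p = 0.0453) and rho 0.26 (permutation p = 0.138, adjusted p = 0.138), so the rank correlation did not pass. Leaving out Cocaine replicate 3 and Tat-Cocaine-Tazemetostat replicate 2, the libraries farthest from the Mbp median, gave r = 0.99 for Mobp, 0.97 for Mag, 0.89 for Cnp, 0.81 for Sox10, 0.83 for Mog, 0.68 for Olig2, 0.51 for Olig1 and 0.40 for Pdgfra.

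The slopes differed more than the correlations. For each doubling of Mbp between libraries of a group, Mag was 2.06-fold and Mobp 2.07-fold higher, Sox10 1.40-fold, Cnp 1.28-fold and Mog 1.25-fold. Olig2 was 1.09-fold higher, Olig1 1.08-fold and Pdgfra 1.05-fold per doubling. Mag and Mobp thus moved in proportion to Mbp on this scale, while Cnp and Mog followed it in rank with a small amplitude. A pseudocount of 0.5 CPM flattens changes at low levels, which touches Mag and Mobp in the lowest libraries.

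**Figure D3:**
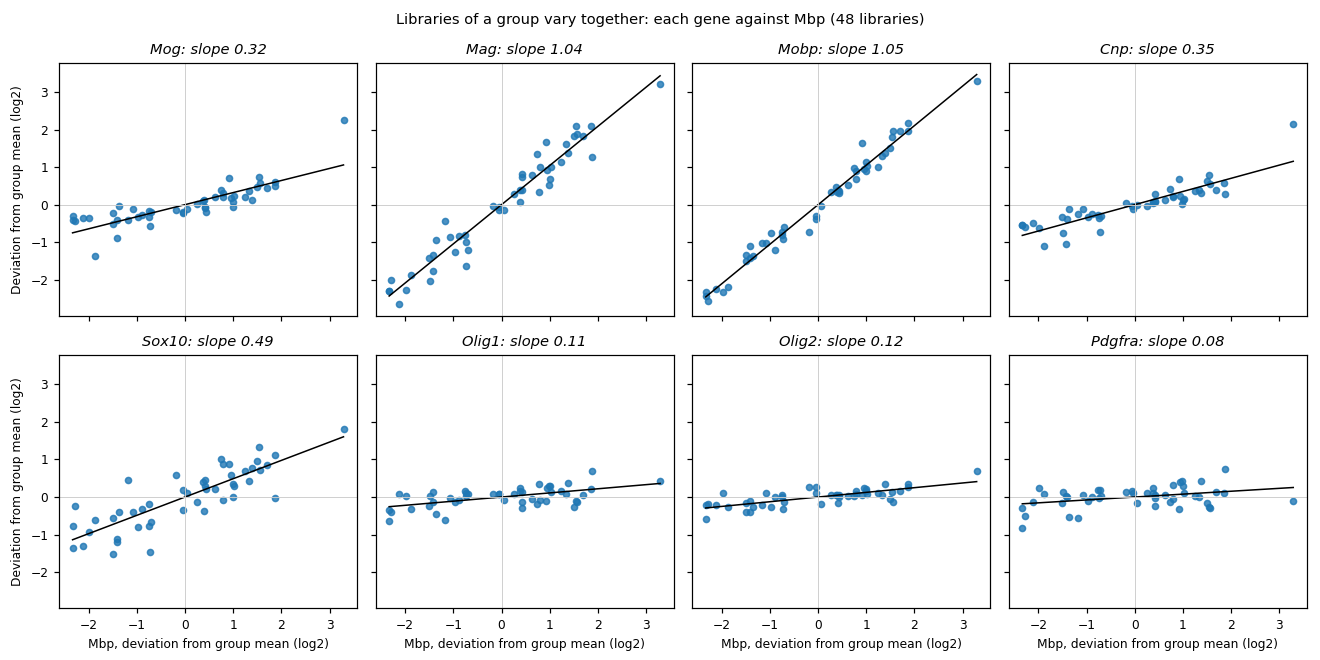
Deviation of each of 8 genes from its group's mean against that of Mbp (log2, both axes), with 1 point per library (48) and a line through the origin whose slope stands in each title. The slope is 1.04 for Mag and 1.05 for Mobp, 0.49 for Sox10, 0.35 for Cnp and 0.32 for Mog, and between 0.08 and 0.12 for Olig1, Olig2 and Pdgfra.

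Olig1 was closer to Pdgfra, the precursor receptor gene, than to the myelin genes, and Olig2 was about as close to Mbp (r = 0.74) as to Olig1. Olig1 correlated with Pdgfra (r = 0.86, rho = 0.77, permutation p = 1e-05 and 2e-05, adjusted p = 1.83e-05 and 3.67e-05) and with Olig2 (r = 0.72, rho = 0.70, permutation p = 0.00013 and 1e-04, adjusted p = 0.000179 and 0.000138). Olig2 and Pdgfra correlated less (r = 0.56, rho = 0.57, permutation p = 0.00313 and 0.00169, adjusted p = 0.00344 and 0.00207). Without the same pair of libraries, which were also farthest from the medians of Olig1 and Olig2, r was 0.90, 0.69 and 0.64. In Cocaine replicate 3, where Mbp was 15.2-fold above the next highest of the other 47 libraries, Olig2 was 1.69-fold above it, Olig1 1.27-fold above it, and Pdgfra, at 314 CPM, was below both other Cocaine libraries (342 and 358 CPM).

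Among 14201 other genes with a mean of at least 1 CPM, the 10 whose deviations were most like the mean of Mbp, Mog, Mag and Mobp included Gjb1 (r = 0.98), Mal, Cldn11, Opalin, Tmem125, Nkx6-2, Ermn, Gpd1 and Ugt8 (r = 0.96), over 48 libraries. Gjb1 encodes connexin 32, Cldn11 the claudin of myelin tight junctions and Ugt8 the enzyme of galactocerebroside synthesis. Cldn11 ran from 0.713 to 1708 CPM, with an SD within groups of 1.65. Most like Pdgfra were the unnamed gene model AABR07014881.1 (r = 0.95), Megf11 (r = 0.86), Calcrl (r = 0.84), Sh3bp4 (r = 0.83) and Zeb1 (r = 0.83). These genes were chosen for their likeness, which is a description.

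Genes of 3 other lists of the lineage and of 6 lists of other cells were set against the same myelin mean. Of 29 tested genes of mature oligodendrocytes 27 had r over 0.5, the exceptions being Aspa (r = -0.08) and Tf (r = 0.04), which encodes transferrin. Of 16 precursor genes 11 had r over 0.5, led by the proteoglycan gene Vcan (r = 0.89). Of 22 genes of signals to the lineage 3 had r over 0.5, among them the growth factor gene Tgfa (r = 0.89) and the neuregulin receptor gene Erbb3 (r = 0.85), while the Notch ligand gene Jag1 had r = -0.72.

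Of the other cells' lists, all 4 genes of dividing cells (Mki67, Top2a, Ccnb1 and Cdk1) had r between -0.75 and -0.63, so that libraries rich in myelin transcripts were low in them. Their summed level ran from 23.6 to 238 CPM. Microglial genes had r between -0.45 and -0.14 (6 of 6 below 0) and neuronal genes between 0.12 and 0.49 (8 of 8 above 0). The mean of the list correlated with the myelin mean at r = -0.69 for dividing cells, -0.32 for microglia, 0.36 for neurons, 0.25 for astrocytes, -0.35 for fibroblasts and mural cells and 0.65 for 4 Schwann cell genes, of which Cdh19 was the highest (r = 0.75). The log2 depth of the libraries correlated with the myelin mean at r = 0.33. The part of any of these in the spread was not tested.

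**Figure D4:**
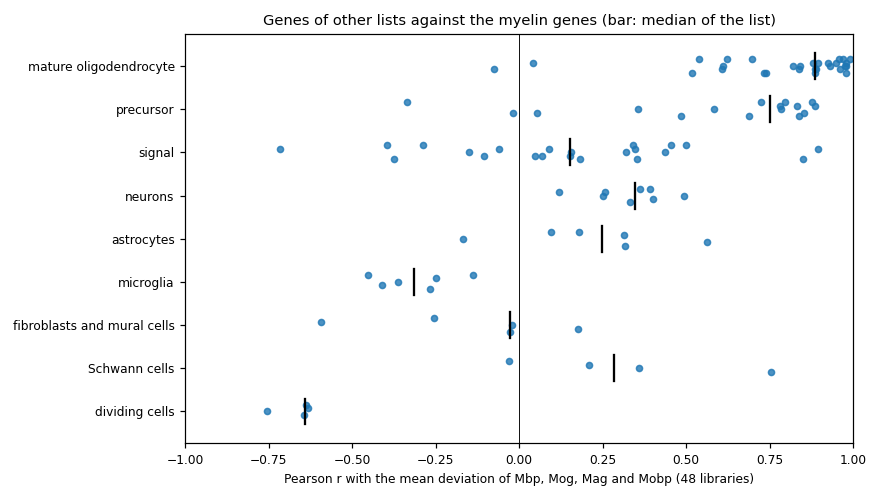
Pearson r over 48 libraries between the deviation of each tested list gene and the mean deviation of Mbp, Mog, Mag and Mobp, with 1 point per gene and a bar at the median of each list. Of the mature oligodendrocyte genes 27 of 29 lie above 0.5 and of the precursor genes 11 of 16, and the 4 genes of dividing cells between -0.75 and -0.63.

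For tests between groups, limma was run on log2(CPM + 0.5) in 1 model of 48 libraries, and a gene was called at a Benjamini-Hochberg FDR under 0.05 over 15890 genes. Log2 fold changes are given with their SE or 95% confidence interval. With 3 libraries against 3, an exact permutation test of 1 gene cannot give a p under 0.1. Nothing in the labels ties the libraries of a group to separate litters or dissections, so p-values measure the spread between these samples.

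Tat came with changes in much of the transcriptome, and none of the 9 lineage genes was among them at this threshold. Averaged over 5 backgrounds (no compound and each of 4 compounds, 15 libraries with Tat against 15 without), limma called 0 of 9 genes, with 0 at an unadjusted p under 0.05, where 56.5% of all genes tested were called and 60.8% had an unadjusted p under 0.05. Mbp averaged 220 CPM with Tat and 225 CPM without (log2 fold change -0.08, 95% interval -1.24 to 1.08). Mag, Mobp, Mog, Cnp and Sox10 had log2 fold changes of -0.26 to 0.08. The intervals of Mbp, Mag and Mobp spanned more than 2 log2 units, so a 2-fold change of these 3 genes was not detectable in these libraries.

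The levels of Pdgfra, Olig1 and Olig2 were measured more closely. Pdgfra averaged 267 CPM with Tat and 316 CPM without (log2 fold change -0.24, 95% interval -0.48 to 0.01, limma FDR 0.0902). Olig1 averaged 196 and 231 CPM (log2 fold change -0.22, interval -0.44 to 0.01, limma FDR 0.0983), and Olig2 90.6 and 99.1 CPM (log2 fold change -0.14, interval -0.34 to 0.06, limma FDR 0.216). None of the 3 passed. Pdgfra passed on leaving out Amlexanox replicate 3 (limma FDR 0.0374), Tat-Tazemetostat replicate 1 (0.0497), Tat-Tazemetostat replicate 3 (0.044) or Senicapoc replicate 2 (0.0338), and Olig1 without Senicapoc replicate 2 (0.0268).

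Some other genes of the lineage passed for Tat in the averaged comparison, in which 56.5% of all genes did. Of 29 mature oligodendrocyte genes 5 rose and 2 fell, a smaller share than over all genes (list median 0.04, median of all genes -0.003), with Tf, which did not follow the myelin mean (r = 0.04), up by 2.08 ± 0.18 (SE) on the log2 scale, Lpar1, a lysophosphatidic acid receptor gene, up by 1.06 ± 0.21 and Myrf up by 1.00 ± 0.19, while Car2, a carbonic anhydrase gene, fell by 0.49 ± 0.10. Myrf averaged 67.9 CPM with Tat and 33.5 CPM without, though the myelin genes named above were not called. Of 16 precursor genes 7 fell and 1 rose (median -0.22). Both directions together, this share was near that over all genes, and the share of all genes that fell is not given here. Ptprz1, a receptor phosphatase gene, went down from 877 to 654 CPM and C1ql1 from 43.4 to 27.7 CPM. The potassium channel gene Kcnj16 went down from 2.31 to 0.712 CPM, and Epn2 went up from 153 to 211 CPM. With the myelin mean C1ql1 had r = 0.69, Epn2 0.48, Ptprz1 0.36 and Kcnj16 -0.34.

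Of 22 genes of signals to the lineage 9 rose and 8 fell with Tat (median 0.10), beside the same 56.5% of all genes. Jag1 averaged 7.08 CPM without Tat and 23.3 CPM with it, a rise of 1.52 ± 0.13 on the log2 scale, and Fgf2, a mitogen of precursors, 31.3 and 44.4 CPM (0.52 ± 0.08). Bmpr1b, a BMP receptor gene, fell from 8.15 to 4.66 CPM, and Tcf7l2, a Wnt effector of newly formed oligodendrocytes, by 0.61 ± 0.09 on the log2 scale. In the same comparison 4 of 4 genes of dividing cells and 4 of 6 microglial genes rose and 6 of 8 neuronal genes fell. Of 6 astrocyte genes 2 rose and 2 fell, and of 5 fibroblast and mural genes 2 rose and 2 fell. The part of these other cells in these values was not tested.

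Tat was also set against Control alone, without a compound, and limma called 0 of 9 genes (0 at an unadjusted p under 0.05) where 21.3% of all genes were called and 35.2% had such a p. Mbp averaged 269 CPM against 194 CPM, a log2 fold change of 0.66 (95% interval -1.94 to 3.25) that turned to -0.40 without Control replicate 3 and to -0.11 without Tat replicate 3. In Tat-Cocaine against Control limma called 0 of 9 (0 at an unadjusted p under 0.05; 14.9% of all genes called, 28.3% with such a p).

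Cocaine against Control called 0 of 9 genes by limma, where 0.201% of all genes were called, and 7 of 9 had an unadjusted p under 0.05, against 12.6% of all genes. All 9 log2 fold changes were above 0, with a median of 1.43 beside 0.005 over all genes. Many of these genes moved together between libraries of a group. Counts of a shared sign, here and in the comparisons below, are therefore not counts of independent results. Olig2 was 103, 114 and 221 CPM in Cocaine cultures and 95.2, 88.2 and 73.5 CPM in Control cultures (log2 fold change 0.69 ± 0.22, limma FDR 0.175). Olig1 was 271, 238 and 400 CPM against 208, 181 and 210 CPM (0.57 ± 0.25, limma FDR 0.333). Mbp (2.97 ± 1.28) and Cnp (1.43 ± 0.51) overlapped between the groups.

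The sizes depended on Cocaine replicate 3, the library that stood apart. Without it all 9 log2 fold changes were above 0, at 1.32 for Mbp, 1.17 for Mobp, 1.04 for Mag, 0.73 for Sox10, 0.36 for Cnp, 0.35 for Olig1 and Olig2, 0.20 for Pdgfra and 0.19 for Mog. Limma then called 0 of 9, with an FDR of 0.999933 for each, so the shared sign alone does not show an effect. Without Cocaine replicate 1 instead limma called 3 of 9 (Cnp, FDR 0.0166, Mog, FDR 0.0305, and Olig2, FDR 0.0116). The share of all genes called in that fit is not given here, so this count cannot be set against a background. Beside its 9293 CPM of Mbp, Cocaine replicate 3 had 1176 CPM of 8 neuronal markers against 3368 and 1307 in the other Cocaine libraries. It had 798 CPM of microglial markers against 380 and 1253, and 37.3 CPM of the genes of dividing cells against 41.9 and 170. Its 25.0 CPM of Schwann cell markers was the highest of all libraries, against 7.88 and 11.3. The part of any of these was not tested.

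In the averaged comparison of cocaine added to Tat, which does not use the Cocaine group, limma called 0 of 9 genes (0 at an unadjusted p under 0.05; 4.55% of all genes called, 20.1% with such a p). Mag had the lowest log2 fold change there, -0.86, and 8 of 9 were below 0 with a median of -0.09 beside 0.007 over all genes. Of the mature and precursor genes 0 of 29 and 0 of 16 were called.

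Tazemetostat, an inhibitor of the histone methyltransferase EZH2, gave the one pairwise comparison with called lineage genes. In Tat-Cocaine-Tazemetostat against Tat-Cocaine limma called 2 of 9, both lower, where 28.7% of all genes were called and 13.4% were called lower, so the share of 9 is near the background. All 9 were below 0, with a median of -0.97 beside 0.02 over all genes, and 5 of 9 had an unadjusted p under 0.05 (42.9% of all genes). Because many of the genes moved together between libraries, these are not 9 independent results.

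Mag was 2.17, 0.561 and 2.44 CPM with Tat-Cocaine-Tazemetostat and 98.6, 29.9 and 9.50 CPM with Tat-Cocaine (log2 fold change -3.94, 95% interval -6.73 to -1.15, limma FDR 0.0324). Olig2 was 64.5, 51.8 and 72.1 CPM against 99.3, 117 and 76.4 CPM (-0.62, interval -1.06 to -0.18, limma FDR 0.0334). Both calls were lost without Tat-Cocaine replicate 1 (limma FDR 0.169 for Mag and 0.114 for Olig2), Tat-Cocaine replicate 2 (0.0861 and 0.161), Tat-Cocaine-Tazemetostat replicate 1 (0.0565 and 0.0605) or Tat-Cocaine-Tazemetostat replicate 2 (0.134 and 0.169). That of Olig2 was also lost with no filter on low values (0.0501).

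The other lineage genes had the same sign and did not pass. Mobp was 2.32, 0.280 and 3.29 CPM against 53.9, 9.95 and 8.76 CPM (log2 fold change -3.10 ± 1.36, limma FDR 0.0798). The Mbp change was -2.83 ± 1.28 (FDR 0.0877), that of Sox10 -1.75 ± 0.75 (FDR 0.0723) and that of Cnp -0.97 ± 0.51 (FDR 0.14), by limma. Mog, at -0.81, was 9.45, 8.56 and 8.46 CPM against 26.3, 14.3 and 10.5 CPM. Pdgfra was 192, 124 and 238 CPM against 193, 266 and 278 CPM (-0.44), and Olig1 169, 111 and 187 CPM against 182, 207 and 202 CPM (-0.37), both with overlap.

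Of the lists, 7 of 29 mature oligodendrocyte genes (median -1.35) and 7 of 16 precursor genes (median -0.88) fell in this comparison and 0 rose, beside the 13.4% of all genes called lower. The summed level of the mature list went the other way, with 6689 to 7861 CPM against 6009 to 6764 CPM. Most of that sum was Tf, which was not called, at 5941 to 7033 CPM against 4148 to 5642 CPM. The list without Tf summed to 748 to 828 CPM against 891 to 2617 CPM. Cldn11 fell by 4.13 on the log2 scale (from 93.9 to 3.63 CPM), a call lost without Tat-Cocaine replicate 1 (limma FDR 0.135), Tat-Cocaine replicate 2 (0.0581) or Tat-Cocaine-Tazemetostat replicate 2 (0.118). In the same libraries 7 of 8 neuronal genes fell, with a summed level of 861 to 1308 CPM against 1956 to 2587 CPM, and 2 of 6 microglial genes rose, with 1140 to 1880 CPM against 450 to 840 CPM. Of the 4 genes of dividing cells 2 rose, with a summed level of 183 to 215 CPM against 62.6 to 123 CPM. Of 6 astrocyte genes 1 fell. Of 5 fibroblast and mural genes Dcn and Lum fell (Lum not without Tat-Cocaine replicate 2, limma FDR 0.0692). Both were low, with medians of 1.43 CPM for Dcn and 0.504 CPM for Lum over 48 libraries. The fibroblast and mural list summed to 244 to 265 CPM against 221 to 331 CPM. The part of these other cells in the result was not tested.

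**Figure D5:**
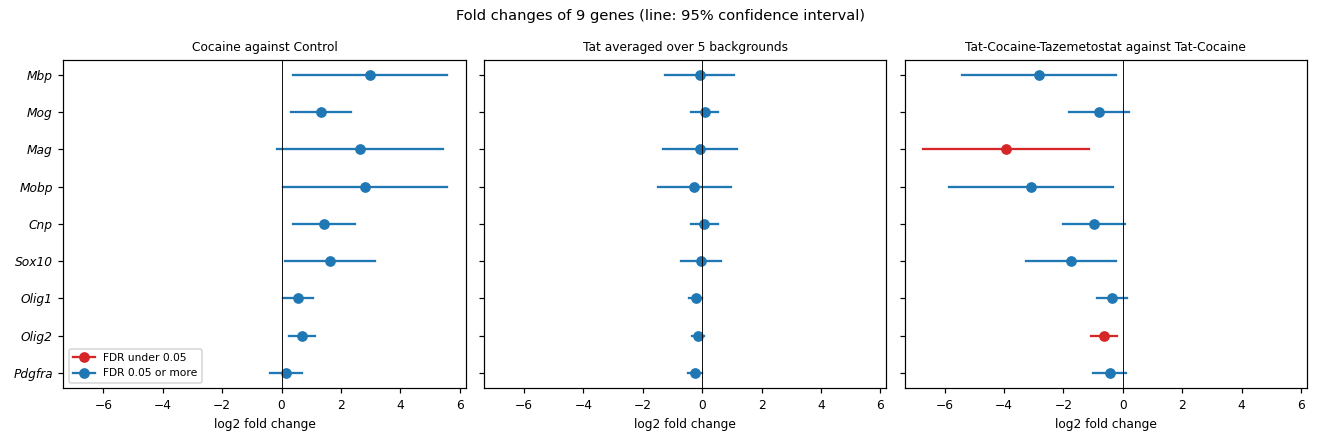
Log2 fold change of each of the 9 genes (points) with its 95% confidence interval (lines) in 3 comparisons from the limma fit to 48 libraries, red where the FDR was under 0.05. Red marks Mag and Olig2 in Tat-Cocaine-Tazemetostat against Tat-Cocaine, and all points of the average Tat comparison lie between -0.26 and 0.08.

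No lineage gene passed in the other comparisons of Tazemetostat. Limma called 0 of 9 genes in Tazemetostat against Control and 0 of 9 in Tat-Tazemetostat against Tat, with 0% of all genes called in both. At an unadjusted p under 0.05 there were 0 of 9 in each, against 3.62 and 5.36% of all genes. In Tazemetostat against Control 6 of 9 log2 fold changes were above 0 (median 0.09), among them Olig1 (0.37) and Olig2 (0.30). In Tat-Tazemetostat against Tat all 9 were below 0 (median -0.50). Averaged over 3 backgrounds, which include Tat with cocaine, all 9 were below 0 (median -0.52 beside 0.005 over all genes), and limma called 0 of 9 where 11.4% of all genes were called (1 of 9 at an unadjusted p under 0.05, against 33% of all genes). Mag had the smallest p (log2 fold change -1.79 ± 0.79, limma FDR 0.114), and it passed without Control replicate 3 (FDR 0.0495). In this average 1 of 29 mature genes (Cntn2) and 3 of 16 precursor genes (Pcdh15, Ptprz1 and Vcan) fell, and each of these 4 calls was lost on leaving out any of at least 5 of the 18 libraries.

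The other 3 compounds called 0 of 9 genes by limma in each of their comparisons, with 0 at an unadjusted p under 0.05. For 4OI the share of all genes called was 3.15% against Control, 15.6% with Tat and 7.36% with Tat and cocaine, and 22.8% in the average, and 13.1, 31.5, 21.2 and 33.5% had an unadjusted p under 0.05. For Amlexanox it was 11.4, 0.837, 0.925 and 7.99% in the same order (26.1, 12.5, 17.8 and 22.5% by unadjusted p), and for Senicapoc 0, 0.409, 0.0441 and 1.16% (8.67, 18.3, 15.5 and 17.9%). Their log2 fold changes in the averages lay between -0.34 and 0.24 for 4OI, between -1.15 and 0.01 for Amlexanox and between -0.34 and 0.34 for Senicapoc.

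A few other genes of the lineage passed for 4OI in its average over 3 backgrounds, in which 22.8% of all genes did. Of 29 mature oligodendrocyte genes 1 rose, Gsn (0.59 ± 0.15), which encodes gelsolin, and 4 fell, among them Myrf (-0.90 ± 0.25) and Enpp2 (-0.61 ± 0.17), the gene of the enzyme that makes lysophosphatidic acid. Myrf averaged 36.3 CPM with 4OI and 70.3 CPM without. Of 16 precursor genes 2 rose, Ptprz1 (0.39 ± 0.08) and Kcnj16 (0.59 ± 0.21), and 0 fell. Neither followed the myelin mean closely (r = 0.36 for Ptprz1 and -0.34 for Kcnj16). The call of Kcnj16 was lost on leaving out any of 8 of the 18 libraries (limma FDR 0.0574 to 0.0952), namely Control replicate 1 or 2, Tat replicate 2, Tat-Cocaine replicate 1 or 2, 4OI replicate 1, Tat-4OI replicate 3 and Tat-Cocaine-4OI replicate 3, and with a pseudocount of 2 (0.0971) or no filter (0.0533). Both lists thus had smaller shares called than all genes. In the same average 4 of 6 microglial genes, 2 of 4 genes of dividing cells and 2 of 5 fibroblast and mural genes fell. Of 6 astrocyte genes 2 rose. The part of these other cells was not tested.

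Whether the response to Tat depended on a compound was tested as an interaction. Limma called 0 of 9 genes for each of 4 compounds, with 0 at an unadjusted p under 0.05, where 0.497% (4OI), 1.84% (Amlexanox), 0% (Tazemetostat) and 0% (Senicapoc) of all genes were called, and 11.9, 18.2, 1.71 and 4.8% had such a p.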

How the data were processed

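The authors trimmed reads with Trim Galore 0.4.5, mapped them on the rat genome by STAR 2.7.2 and used featureCounts (Subread 1.5.3) to count unique alignments, from poly(A)-selected, strand-specific, paired-end libraries. The build is named differently in the sources used here, so no position was taken from the files. The deposited signal per gene and library is TMM-scaled CPM, with column sums of 930399 to 1046892. Values above 0 were whole reads (within 0.02 read) in only 85.0 to 87.3% of cases, so count tests were not run. The authors' comparisons (log2 fold changes, log CPM, likelihood ratios, p-values and FDR) and group means fill 196 columns that were not used.

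Labels gave each library its group and replicate number. A gene that reached 0.5 CPM in 3 or more libraries was tested as log2(CPM + 0.5) with limma 3.58.1 (eBayes with a trend, no covariate) in R 4.3.3. At 0.5 CPM a library held 8.57 to 15.0 reads. Correlations were computed with Python 3.11.15 and scipy 1.17.1. The test was also run on simulated data for Tat against Control, drawn independently for each gene and library. That run does not cover libraries whose genes vary together, as these do. The 9 genes and the other lists were chosen with earlier results of these data known. List genes were named where called in an averaged comparison or in Tat against Control, at most 4 per list in order of p, together with the 10 genes most like the myelin mean and the 5 most like Pdgfra. Cldn11, Dcn, Lum and the list sum without Tf in the Tazemetostat comparison, and Aspa, Vcan, Tgfa, Erbb3, Jag1 and Cdh19 in the correlations, were chosen after their values were seen. Some genes that the rule or a list holds are not reported here. Libraries of a group differed by more than counting error (chi-square per degree of freedom 5.86 to 130.2 in 48 pairs). Same-numbered libraries deviated together, each pair with r over 0.1, in 5 of 15 comparisons (Tat-Cocaine, 4OI, Tazemetostat and Senicapoc against Control, and Tat-Amlexanox against Tat), as the data show and the labels do not state. Alternatives were other pseudocounts (0.1 and 2), filters (none, 2 CPM), scalings (median ratio, quantile), a fit to the compared groups alone, limma without a trend, array weights, a replicate block and leaving out each library. Those of the spread and the fits without Cocaine replicate 3 were added after seeing the data.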

Additional observations from a re-analysis of the deposited data

How the results depend on the processing

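The number of lineage genes called stayed within 1.5 times of its value under every alternative run in 17 of 25 comparisons. In Tat-Cocaine-Tazemetostat against Tat-Cocaine, where 2 were called, 1 was called with no filter on low values, 4 when just the compared groups were fitted and 7 with array weights, and 0 to 3 when 1 library was left out. Array weights also called 2 in Tat-Cocaine-4OI against Tat-Cocaine, 1 in Tat-Cocaine-Amlexanox against Tat-Cocaine, 1 in Senicapoc against Control, 2 in the average Tat comparison (Olig1 and Pdgfra) and 2 in the average 4OI comparison, where 0 were called otherwise. Without 1 library the count ran from 0 to 3 in Cocaine against Control and from 0 to 2 in the average Tat comparison. In the average Tazemetostat comparison it ran from 0 to 1. Shares of all genes called under these settings are not given here, so these counts cannot be set against a background. The Mbp log2 fold change ran from -0.40 to 1.51 in Tat against Control and from -0.31 to 0.15 in the average Tat comparison when 1 library was left out. The replicate block changed no count of lineage genes called: it remained 2 in Tat-Cocaine-Tazemetostat against Tat-Cocaine and 0 in the other 24 comparisons. The SDs within groups moved by less than their own spread over groups in 495 of 495 alternatives. That yardstick is wide, since it takes in the Cocaine group, so this count does not show that the SDs were stable. Without Cocaine replicate 3 the SD went from 0.64 to 0.42 for Mog and from 0.65 to 0.46 for Cnp. The cause of these shifts was not tested. In comparisons of 1 group with another, with 3 libraries a group and SDs over 1.6, changes of Mbp, Mag and Mobp below several-fold were not detectable here.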
